A study of Mus musculus with 14 samples.

Results

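The clustered protocadherins are 3 neighbouring families of cell-surface genes, alpha, beta and gamma, that lie in tandem on mouse chromosome 18. In the deposited table of 56748 genes, 58 names follow the pattern of this family, and the 54 with at least 140 counts over the 14 libraries are described here: 12 of the alpha cluster, 21 of the beta cluster and 21 of the gamma cluster. The count threshold used counts summed over both genotypes and no comparison between them, but the family was chosen with earlier results of these data known. The member with the fewest counts, *Pcdha8*, had 197, and the 4 names left out had 24 to 42 counts (*Pcdha4*, *Pcdhb1*, *Pcdhga10* and *Pcdha11*). All 54 members were among the 18170 genes tested, and the 4 names left out were not.

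Brain RNA was sequenced from 8 *Rik* null pups and 6 WT pups at postnatal day 14, 1 library per pup. *Rik* null pups were homozygous for a spontaneous intronic deletion that disrupts expression of *2310061I04Rik* (*Rik*), a gene on another chromosome. The allele arose in 1 embryonic stem cell clone while floxed *Traf7* mice were being made and was bred away from the modified *Traf7* gene by crosses to C57BL/6, so mutants may also carry other sequence linked to the allele. Both genotypes are labelled C57BL6/J, whole brain, and the study describes the pups as littermates. By their labels, 7 of the *Rik* null pups were male and 1 was female, and of the WT pups 2 were male and 4 female.

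The proteins of these clusters cross the membrane once and carry cadherin repeats, with which most isoforms bind their own kind on an opposing cell. In the alpha and gamma clusters each variable exon has a promoter of its own and is spliced to exons that the whole cluster shares, which encode a common cytoplasmic part, whereas each beta gene is a single exon. A neuron typically uses a few variable promoters, chosen largely at random and with the help of CTCF, cohesin and DNA methylation, and the resulting combination lets its dendrites and axons tell self from non-self. The C-type isoforms at the ends of the alpha and gamma clusters are used more regularly, and the gamma cluster is known for its part in neuron survival and dendrite branching.

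The total count of a library lay between 15183130 and 28012811 in *Rik* null brains (median 20396468) and between 18102343 and 30993890 in WT brains (median 27737932). *Rik* itself had 7.44 to 10.6 CPM (counts relative to the library total, scaled for library composition) in *Rik* null brains, against 68.9 to 79.4 CPM in WT brains. The sex of 2 libraries went against their labels: *Xist* stood at 436 CPM with no count of 4 Y-linked genes in WT 1 (labelled male), and at 0.16 CPM with 157 CPM of Y-linked RNA in WT 6 (labelled female). Growth hormone RNA, which pituitary cells make, was found at 44.5 CPM in library 5 and 185 CPM in library 8 of the *Rik* null brains, against at most 0.96 CPM in WT brains. Over all tested genes the libraries fell into 2 sets that both hold both genotypes and that no label names. Set 1 was *Rik* null 1, 6, 7 and 8 with WT 1, 4, 5 and 6, and set 2 was *Rik* null 2, 3, 4 and 5 with WT 2 and 3. Results that rest on these libraries are given with and without them below.

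Clustered protocadherin RNA was more abundant in *Rik* null brains in the alpha and gamma clusters, while most beta genes between them showed small differences. Of the 54 members, 11 rose and 1 fell in *Rik* null brains (edgeR's quasi-likelihood test, Benjamini-Hochberg adjusted p of at most 0.05 over all 18170 genes). Over all genes tested, 1.12% were called higher, 2.2% lower and 3.31% in either direction. The 11 that rose were *Pcdha3*, *Pcdha5* and *Pcdhac2* of the alpha cluster, and *Pcdhga1*, *Pcdhga2*, *Pcdhgb1*, *Pcdhga7*, *Pcdhgb4*, *Pcdhga8*, *Pcdhgc3* and *Pcdhgc4* of the gamma cluster. The one that fell was *Pcdhb12*, and no beta gene rose.

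The direction was shared well beyond the genes called. The log2 fold change was positive for 46 of the 54 members, against 50.5% of all genes tested, and its median was 0.22, against 0.0017 for all genes tested. At an unadjusted p under 0.05, 27 members lay higher in *Rik* null brains and 2 lower, against 8.34% and 10.3% of all genes tested. Members share chromosome, libraries and, in 2 clusters, exons, so they are not independent of each other, and the changes were small. The largest called change was that of *Pcdhgb4*, 0.52 on the log2 scale. In bulk brain RNA, more cells that express a gene and more RNA per cell cannot be told apart.

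**Figure D1:**
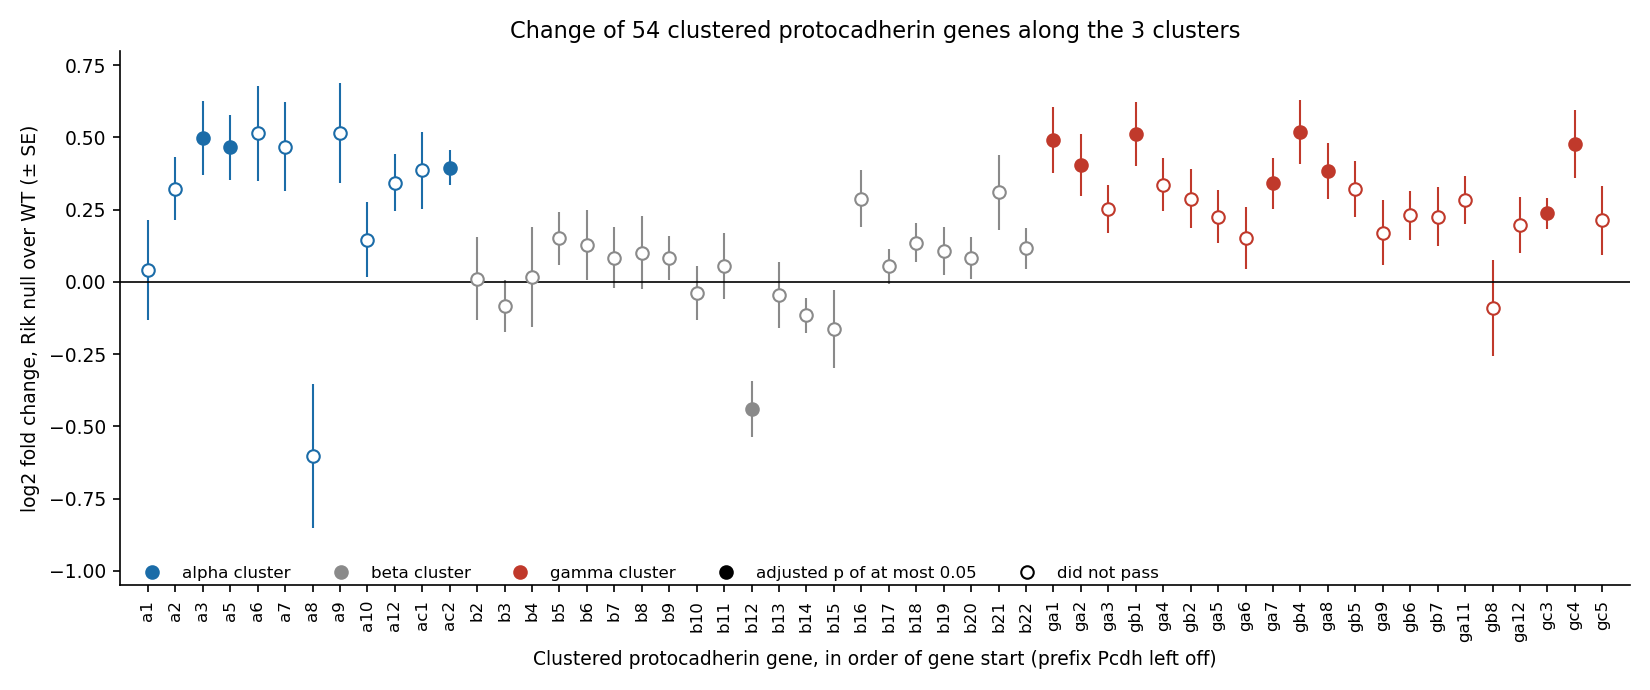
The log2 fold change of *Rik* null over WT (vertical axis, with its standard error) for the 54 members in order of their starts along the chromosome (horizontal axis), coloured by cluster; filled points passed an adjusted p of at most 0.05. Most alpha and gamma points lie above 0 (11 of 12 and 20 of 21), while the beta points scatter around it with *Pcdhb12* lowest at −0.44.

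The number of members called depended on single libraries. It was 15 without *Rik* null 1 and 8 to 10 without *Rik* null 5, 6, 7 or 8 or WT 2 or 3. It was 6 without *Rik* null 2 or 3 or WT 5 or 6, 4 without *Rik* null 4 or WT 1, and 3 without WT 4. *Pcdhac2*, *Pcdhgb1* and *Pcdhgb4* were called in each of these 14 fits. Without WT 1 and WT 6, whose sex goes against the labels, 3 members were called (*Pcdha5*, *Pcdhac2* and *Pcdhgb1*), and without *Rik* null 5 and 8, which held growth hormone RNA, 6 were called, *Pcdhac2* and *Pcdhgb1* among them. With the labelled sex as a term of the fit, 4 members were called (*Pcdhac2*, *Pcdhgb1*, *Pcdhgb4* and *Pcdhgc4*), while 28 were higher at an unadjusted p under 0.05. This term keeps the labels that the RNA of WT 1 and WT 6 goes against, so it does not adjust for the sex seen in the RNA. Most *Rik* null pups were labelled male and most WT pups female, so sex and genotype are partly confounded. Over the 14 fits with 1 library left out, 78 to 340 of all tested genes were called higher, against 203 with all libraries. That number was 43 without WT 1 and WT 6, 73 without *Rik* null 5 and 8, and 43 when the fit held labelled sex.

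Along the chromosome, positive values made up most of the first and the last cluster. The starts of the alpha genes span 213 kb, the first beta gene starts 335 kb from the start of *Pcdha1*, the first gamma gene 732 kb from it, and the last gene, *Pcdhgc5*, 889 kb from it, all on the same strand. The median log2 fold change was 0.39 over the 12 alpha members (−0.60 to 0.51), 0.083 over the 21 beta members (−0.44 to 0.31) and 0.28 over the 21 gamma members (−0.09 to 0.52). Of the 10 variable alpha genes 9 had a positive value, of the 11 gamma A genes all, and of the 7 gamma B genes 6. All 5 C-type genes had a positive value, and 3 of them were called. Among beta genes 15 of 21 had a positive value. The difference between the clusters was not tested, since their members share libraries and exons.

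Exons shared between genes bear on what a count of these genes holds. In GENCODE M21 (GRCm38), whose exonic lengths equal those of the table for all 58 names, the beta genes hold 90.3% to 100% of their bases free of any other gene on the same strand. *Pcdha5* and *Pcdhgb4*, which end in shared exons, hold 45.1% and 61.7% free. *Pcdha4*, with 8.56% of its 5768 exonic bases free, had 24 counts over all libraries, against 2071 counts of *Pcdha5*, so reads of the shared exons were not counted once for every gene. How the counting treated them is not stated in the sources at hand, and the values below are read as counts of the part of each gene that it shares with no other.

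The summed level of a cluster gives the same picture without choosing genes. Alpha members summed to 88.0 to 115 CPM in *Rik* null brains (99.6 ± 8.92, SD, n = 8), against 65.0 to 86.3 CPM in WT brains (75.9 ± 8.08, SD, n = 6). Gamma members summed to 274 to 314 CPM (298 ± 13.1) in *Rik* null brains, against 225 to 273 CPM (244 ± 17.4) in WT brains. In both clusters every *Rik* null library lay above every WT library, although the lowest *Rik* null and the highest WT library were close to each other. By *Xist* and Y-linked RNA, WT 2 and WT 6 were the male WT brains, and they had the highest WT alpha sums (81.1 and 86.3 CPM). For gamma, WT 6 was the highest WT brain (273 CPM), while WT 2 (243 CPM) lay below WT 5 (255 CPM). The part of sex in these sums was not tested. Beta members summed to 148 to 168 CPM (156 ± 6.64) in *Rik* null brains and to 147 to 156 CPM (151 ± 3.69) in WT brains, and the genotypes overlapped. The *Rik* null means were thus 31.2%, 3.61% and 22.0% above the WT means for alpha, beta and gamma. A sum over members carries no p-value here, and the most abundant members weigh most in it.

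**Figure D2:**
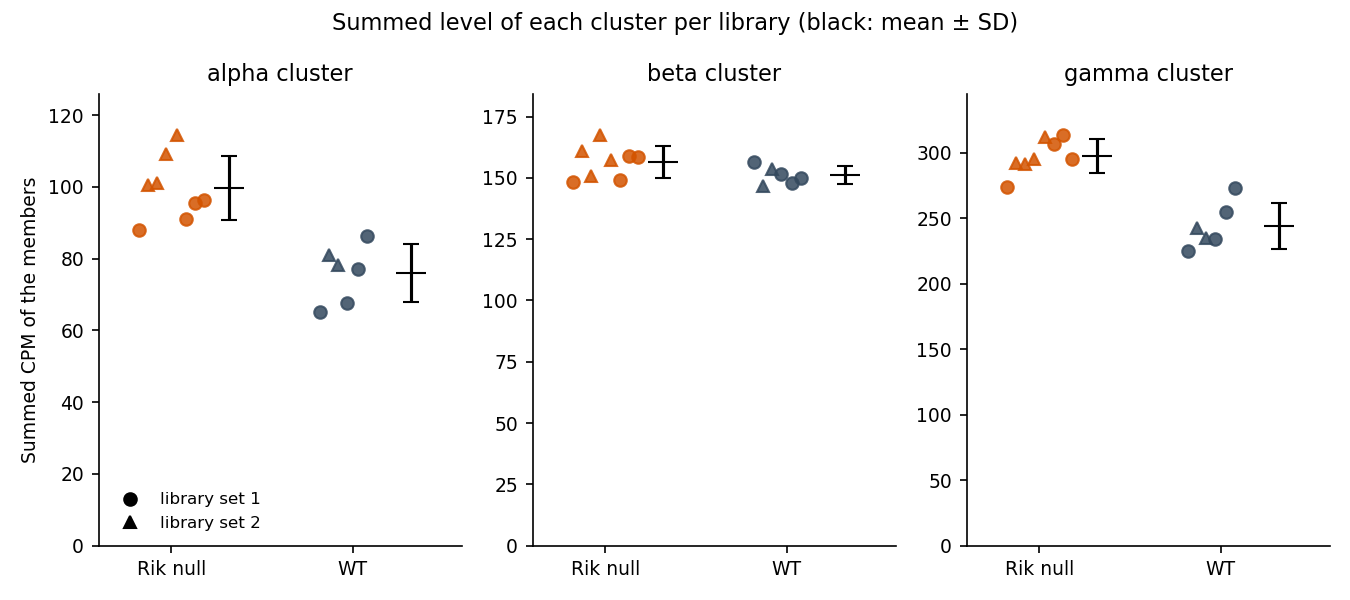
Summed CPM of the members of each cluster (vertical axis) in each of the 8 *Rik* null and 6 WT libraries (horizontal axis); circles are library set 1, triangles set 2, and black bars the mean ± SD. *Rik* null libraries lie above WT libraries in the alpha cluster (88.0 to 115 against 65.0 to 86.3) and in the gamma cluster (274 to 314 against 225 to 273) and overlap with them in the beta cluster.

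The summed alpha and gamma levels were higher in *Rik* null brains within both library sets, while the beta sums of the genotypes overlapped in both. In set 1, alpha members summed to 88.0 to 96.4 CPM in 4 *Rik* null brains, against 65.0 to 86.3 CPM in 4 WT brains. In set 2 they summed to 101 to 115 CPM in 4 *Rik* null brains, against 78.1 and 81.1 CPM in 2 WT brains. Gamma members averaged 298 CPM in *Rik* null brains of set 1, against 247 CPM in WT brains of that set, and 298 CPM in *Rik* null brains of set 2, against 239 CPM in WT brains. In set 1 the lowest *Rik* null gamma sum (274.0 CPM) was close to the highest WT gamma sum (273.1 CPM). The beta cluster averaged 154 CPM in *Rik* null brains and 151 CPM in WT brains of set 1, and 159 CPM in *Rik* null brains and 150 CPM in WT brains of set 2. Fitted within set 1 alone, 0 members were called by edgeR, with 18 higher and 1 lower at an unadjusted p under 0.05, and within set 2 alone 6 were called, of which 3 were among the 12. With the set as a term of the fit, 19 members were called and the 12 were among them. The sets came from these same values, so calls with the set as a term are a description. Of all genes tested, 0.022% were called higher within set 1, 1.63% within set 2 and 3.81% with the set as a term. With all libraries and no such term it was 1.12%.

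The make-up of protocadherin RNA differed slightly between the genotypes. Beta members made up 26.9% to 29.3% of the summed level of all members in *Rik* null brains, against 29.4% to 35.1% in WT brains. These did not overlap, although the highest *Rik* null and the lowest WT share were close. The shares of a library add up to the whole, so a lower beta share follows from the higher alpha and gamma sums and is no separate result. The gamma share was 51.6% to 56.1% in *Rik* null brains and 50.3% to 53.6% in WT brains, and the alpha share 16.6% to 19.6% in *Rik* null brains and 14.6% to 17.2% in WT brains, and both overlapped. All members together made up 0.050% to 0.058% of the counts of a *Rik* null library and 0.044% to 0.051% of those of a WT library.

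Levels of the members, taken per length, spanned a wide range, and their order was much alike in both genotypes. Per kb of exon that no other gene covers on the same strand, the WT level ran from 0.30 CPM for *Pcdha8* to 11.9 CPM for *Pcdhgc5*. The C-type genes *Pcdhgc5*, *Pcdhgc3* (11.8 CPM per kb), *Pcdhac2* (10.7) and *Pcdhgc4* (7.73) were the highest in WT brains, and the next was *Pcdhgb6* (4.98). This order depends on the strand taken. Free of genes on either strand, *Pcdhgc3* has 1821 bases in place of 3380, and *Pcdhga11* 1256 in place of 2637. *Pcdhga10*, with 2613 bases free on its own strand and 0 free on either strand, had 32 counts over all libraries. Whether the counting used strand is not given and was not tested, and levels for these shorter lengths were not ranked. If strand was ignored, the shorter lengths apply, and the levels per kb of *Pcdhgc3* and *Pcdhga11* are understated here. In *Rik* null brains the same 4 genes had the highest levels, 13.8 CPM per kb for *Pcdhgc5*, 13.9 for *Pcdhgc3*, 14.1 for *Pcdhac2* and 10.7 for *Pcdhgc4*. The ranges of the first 3 over libraries overlapped in both genotypes. Across the 54 members, the mean levels of the genotypes had a Spearman rho of 0.97 and, on the log2 scale, a Pearson r of 0.98, given as a description, since gene length and sequence set much of a level in both. The 5 C-type genes made up 35.2% of the members' summed level in *Rik* null brains and 33.3% in WT brains.

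**Figure D3:**
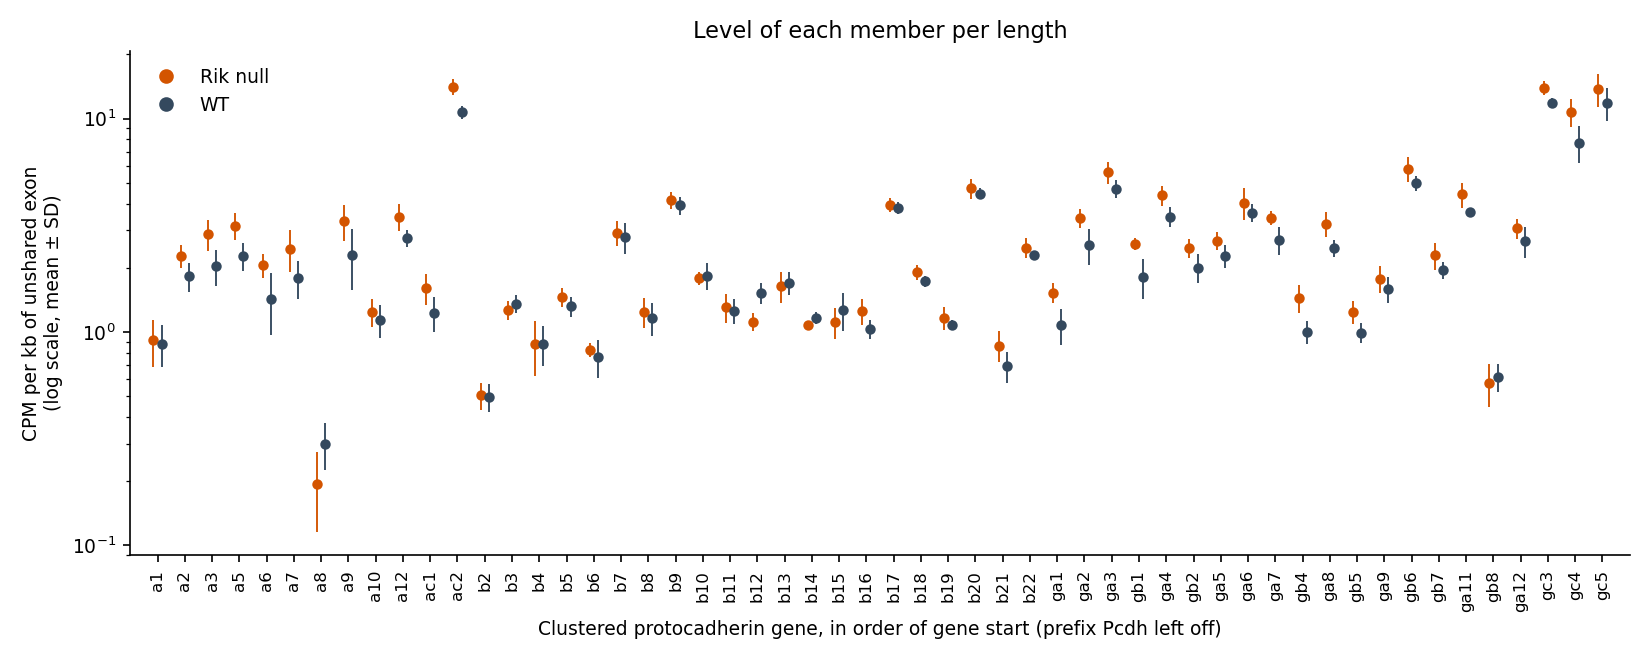
Mean level per kb of exon unshared on the same strand (vertical axis, log scale, CPM per kb, ± SD over libraries) of each member in *Rik* null and WT brains, in order of start along the chromosome (horizontal axis). The C-type genes *Pcdhac2*, *Pcdhgc3*, *Pcdhgc4* and *Pcdhgc5* stand highest in both genotypes, and *Pcdha8* lowest (0.30 CPM per kb in WT brains).

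The most abundant alpha gene had the clearest difference of all members. *Pcdhac2*, a C-type isoform that serotonergic neurons need for their axons to spread evenly, had 37.1, 42.1 and 48.5 CPM (lowest, median and highest) in *Rik* null brains, against 28.9, 32.5 and 35.2 CPM in WT brains. It was the one alpha member with every *Rik* null library above every WT library. Its log2 fold change was 0.40 (SE 0.062, adjusted p = 0.0025 by edgeR's quasi-likelihood test), the smallest adjusted p of the members, and it stayed at or under 0.0079 in each fit without 1 library. Within library sets its log2 fold change was 0.32 in set 1 and 0.45 in set 2. It made up 42.9% of alpha counts in both genotypes, so the rest of the cluster moved in the same proportion on average. The other C-type gene, *Pcdhac1*, had 3.22, 4.25 and 4.97 CPM in *Rik* null brains, against 2.67, 2.98 and 4.24 CPM in WT brains. Its log2 fold change of 0.39 was close to that of *Pcdhac2*, but its libraries overlapped and it did not pass (SE 0.13, adjusted p = 0.122 by edgeR).

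Of the variable alpha isoforms, which single neurons pick in differing combinations, *Pcdha3* and *Pcdha5* passed. *Pcdha3* had 5.54, 7.02 and 9.06 CPM in *Rik* null brains, against 3.65, 4.96 and 6.32 CPM in WT brains, a log2 fold change of 0.50 (SE 0.13, adjusted p = 0.0414 by edgeR). *Pcdha5* had 5.95, 7.33 and 8.77 CPM in *Rik* null brains, against 4.63, 5.21 and 6.83 CPM in WT brains, a log2 fold change of 0.47 (SE 0.11, adjusted p = 0.0305 by edgeR). For each of them, 6 of 8 *Rik* null libraries lay above all WT libraries. Neither call held in all fits without 1 library. That of *Pcdha3* was lost without *Rik* null 2, 3, 4, 5 or 8 or WT 1, 4, 5 or 6 (edgeR adjusted p up to 0.102), and that of *Pcdha5* without *Rik* null 3, 4, 5 or 8 or WT 1, 2, 3, 4 or 5 (up to 0.0705). The variable genes that did not pass had log2 fold changes of 0.041 (*Pcdha1*) to 0.51 (*Pcdha6* and *Pcdha9*), apart from *Pcdha8*. *Pcdha8*, with the fewest counts of all members, had 0.28, 0.42 and 0.78 CPM in *Rik* null brains and 0.50, 0.72 and 0.99 CPM in WT brains, a log2 fold change of −0.60 (SE 0.25, adjusted p = 0.202 by edgeR).

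The gamma cluster held most of the calls, from its first gene to its last but one. *Pcdhgb1* had 6.32, 6.72 and 7.49 CPM in *Rik* null brains, against 3.49, 4.72 and 5.92 CPM in WT brains, with no overlap (log2 fold change 0.51, SE 0.11, adjusted p = 0.0185 by edgeR). *Pcdhgb4* had 3.99, 5.26 and 6.15 CPM in *Rik* null brains, against 2.94, 3.51 and 4.14 CPM in WT brains, and 7 of 8 *Rik* null libraries lay above all WT libraries (0.52, SE 0.11, adjusted p = 0.0182 by edgeR). Both encode variable isoforms of the B type, and both calls held without any 1 library (edgeR adjusted p up to 0.0457 and 0.0447). The call of *Pcdhgb4* was lost without WT 1 and WT 6 (adjusted p = 0.0727) and without *Rik* null 5 and 8 (0.071).

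Of the A-type variable isoforms, 4 of 11 passed and all 11 had positive values (0.15 to 0.49). *Pcdhga1*, the first gene of the cluster, had 4.34, 4.70 and 5.69 CPM in *Rik* null brains, against 2.67, 3.61 and 4.38 CPM in WT brains (log2 fold change 0.49, SE 0.12, adjusted p = 0.0284 by edgeR). *Pcdhga2* had 7.78, 8.52 and 10.1 CPM in *Rik* null brains, against 4.69, 6.47 and 8.41 CPM in WT brains (0.41, SE 0.11, adjusted p = 0.0487). In *Pcdhga1* 7 of 8 and in *Pcdhga2* 4 of 8 *Rik* null libraries lay above all WT libraries. *Pcdhga7* had 9.23, 11.1 and 11.4 CPM in *Rik* null brains, against 7.09, 8.21 and 10.01 CPM in WT brains (0.34, SE 0.089, adjusted p = 0.0428). *Pcdhga8* had 6.49, 8.29 and 9.40 CPM in *Rik* null brains, against 5.20, 6.28 and 6.94 CPM in WT brains (0.38, SE 0.096, adjusted p = 0.0365). In each of these, 6 of 8 *Rik* null libraries lay above all WT libraries. These 4 calls depended on single libraries: *Pcdhga1* was lost without *Rik* null 2 or 4 or WT 1, 4 or 6 (edgeR adjusted p up to 0.0614), and *Pcdhga2* was lost in each such fit except those without *Rik* null 1 or WT 6 (up to 0.109). *Pcdhga7* was lost without *Rik* null 1, 2, 3, 4, 6 or 8 or WT 1, 3, 4, 5 or 6 (up to 0.108), and *Pcdhga8* without *Rik* null 2, 3, 4 or 7 or WT 1, 2, 4, 5 or 6 (up to 0.0884).

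The remaining variable gamma genes lay on the same side of 0 with 1 exception. *Pcdhga4*, *Pcdhga11* and *Pcdhgb5* had log2 fold changes of 0.34, 0.28 and 0.32 with edgeR adjusted p of 0.0531, 0.0705 and 0.0812. *Pcdhgb8*, the gamma member with the fewest counts, averaged 1.45 CPM in *Rik* null brains and 1.54 CPM in WT brains (−0.09, SE 0.17, adjusted p = 0.809). Its neighbours *Pcdhga11* and *Pcdhga12* had 0.28 and 0.20.

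**Figure D4:**
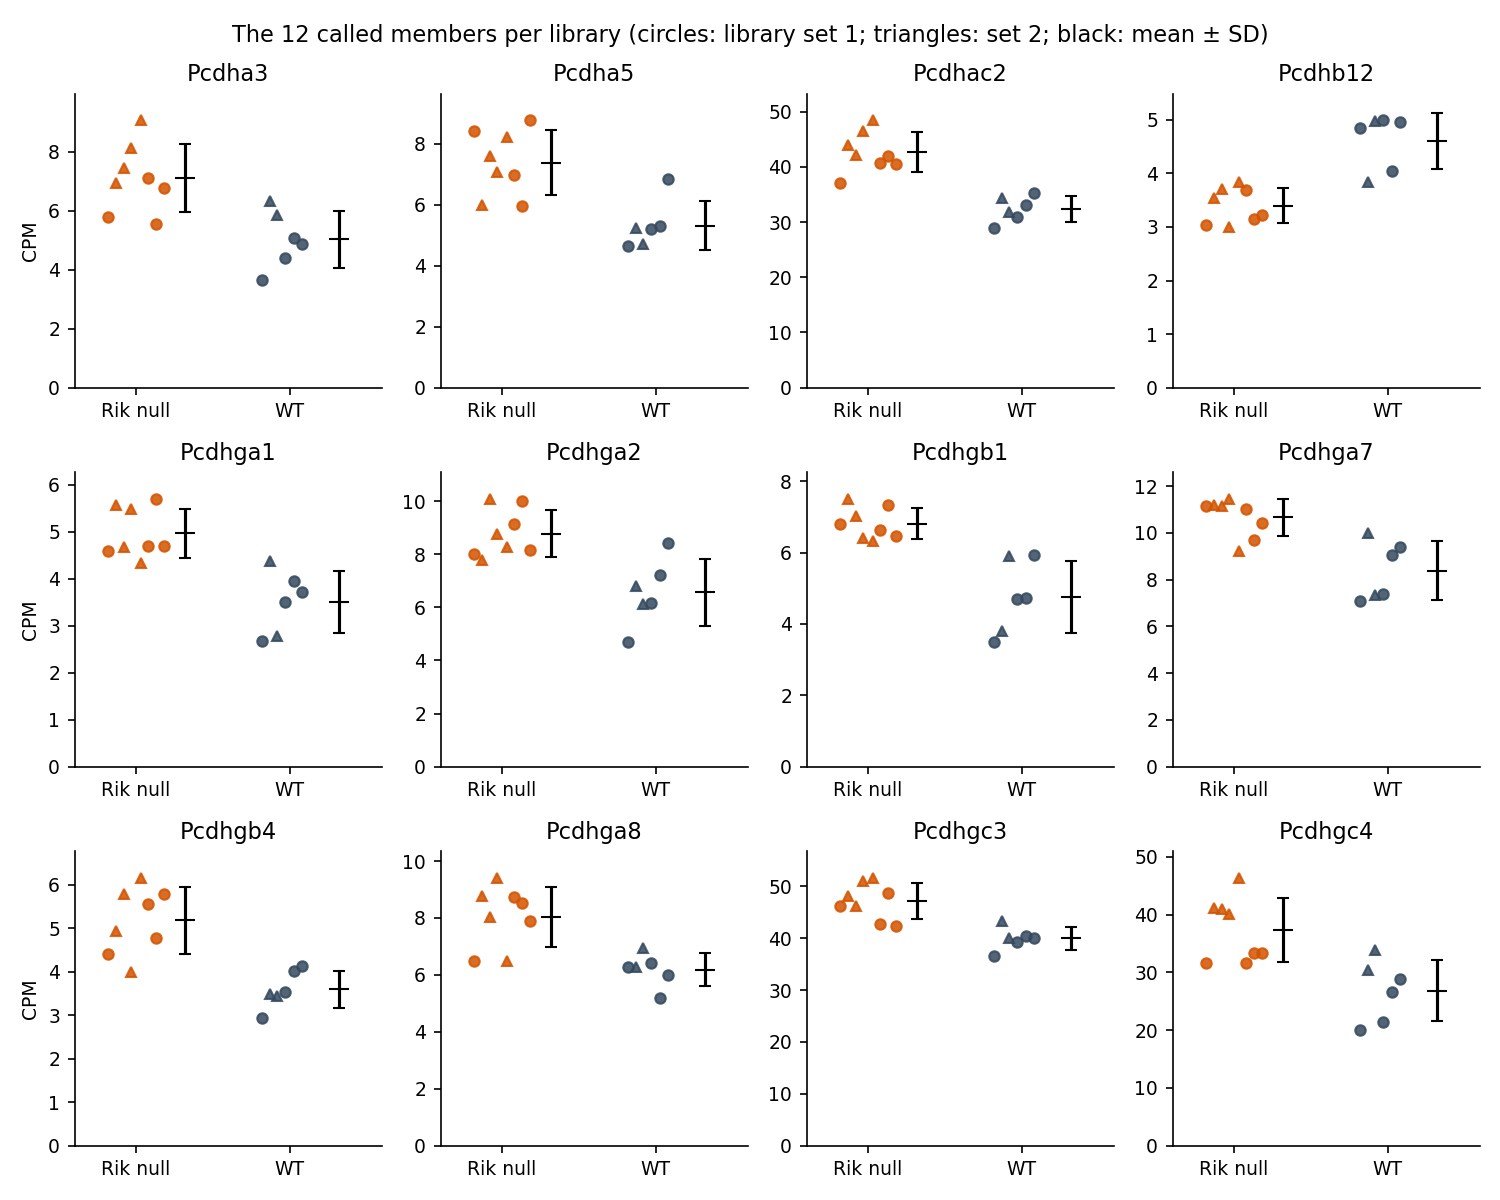
CPM (vertical axis, starting at 0) of the 12 called members in each *Rik* null and WT library (horizontal axis); circles are library set 1, triangles set 2, and black bars the mean ± SD. In *Pcdhac2* and *Pcdhgb1* all *Rik* null libraries lie above all WT libraries, in *Pcdhb12* all lie below them, and in the other 9 genes the genotypes overlap.

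The 3 gamma C-type isoforms end the cluster and made up 49.7% of its summed level in *Rik* null brains and 49.8% in WT brains. *Pcdhgc3*, which acts in dendrite branching of cortical neurons, had 42.2, 47.2 and 51.5 CPM in *Rik* null brains, against 36.6, 40.0 and 43.4 CPM in WT brains, and 6 of 8 *Rik* null libraries lay above all WT libraries (log2 fold change 0.24, SE 0.054, adjusted p = 0.0246 by edgeR). *Pcdhgc4*, the isoform that mouse interneurons need to survive, had 31.6, 36.8 and 46.3 CPM in *Rik* null brains, against 19.95, 27.8 and 33.8 CPM in WT brains (0.48, SE 0.12, adjusted p = 0.0341), with 4 of 8 *Rik* null libraries above all WT libraries. The call of *Pcdhgc3* was lost without *Rik* null 4 or WT 1, 4 or 6 (edgeR adjusted p up to 0.0614), and that of *Pcdhgc4* without *Rik* null 2, 3, 4 or 5 or WT 1, 4, 5 or 6 (up to 0.0851). *Pcdhgc5*, the member with the most counts, had 52.0, 60.2 and 81.5 CPM in *Rik* null brains, against 40.8, 56.2 and 68.1 CPM in WT brains, and did not pass (0.21, SE 0.12, adjusted p = 0.357). Its genotypes overlapped, with 3 of 8 *Rik* null libraries above all WT libraries.

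*Pcdhgc4* and *Pcdhgc5* differed between the library sets in opposite directions, in both genotypes. *Pcdhgc5* averaged 72.9 CPM in *Rik* null brains and 60.2 CPM in WT brains of set 1, and 54.2 CPM in *Rik* null brains and 43.5 CPM in WT brains of set 2. *Pcdhgc4* averaged 32.5 CPM in *Rik* null brains and 24.2 CPM in WT brains of set 1, and 42.1 CPM in *Rik* null brains and 32.1 CPM in WT brains of set 2. On the log2 scale, set 1 over set 2 was 0.43 in *Rik* null and 0.47 in WT brains for *Pcdhgc5*, and −0.37 in *Rik* null and −0.41 in WT brains for *Pcdhgc4*. For *Pcdhgc3* it was −0.13 in *Rik* null and −0.09 in WT brains. The sets were formed from all tested genes, these included, so this difference is a description. In both sets the *Rik* null mean of both genes was above the WT mean. With the set as a term of the fit *Pcdhgc5* was called (0.29, edgeR adjusted p = 0.0041), and within set 2 alone also (0.32, adjusted p = 0.0084). As the sets were formed from values that include *Pcdhgc5*, these p-values do not test it independently and are a description too.

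**Figure D5:**
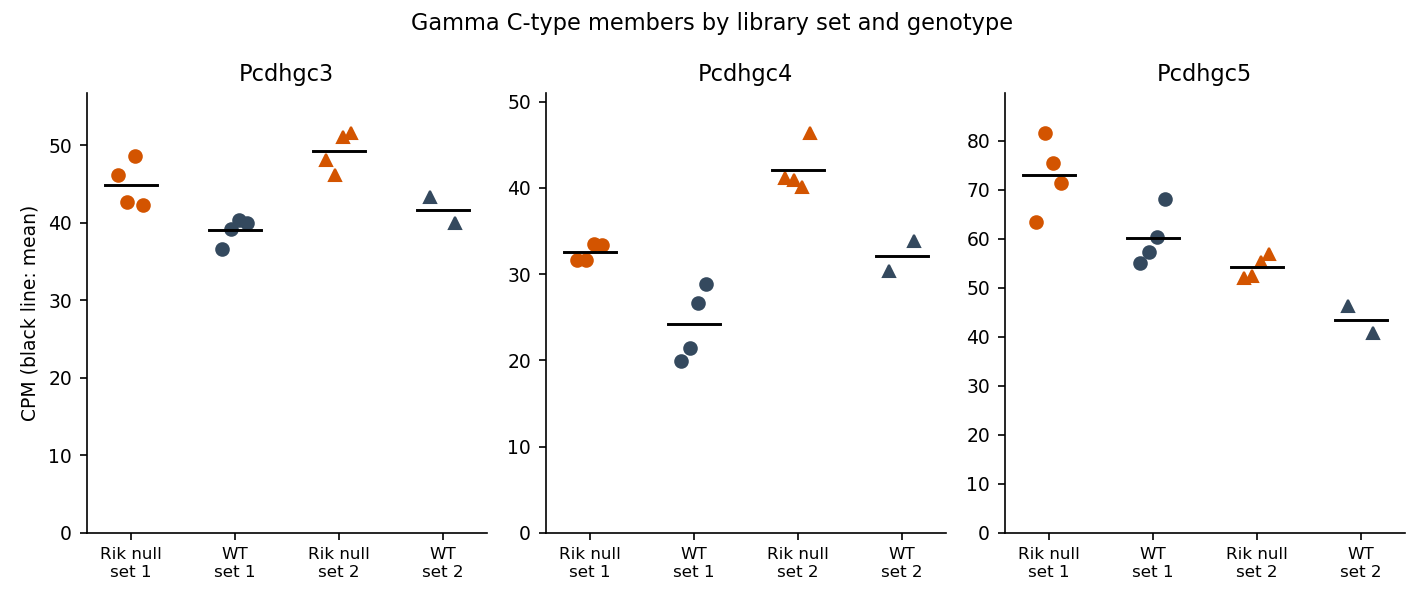
CPM (vertical axis, starting at 0) of the gamma C-type genes *Pcdhgc3*, *Pcdhgc4* and *Pcdhgc5* in each library, by library set and genotype (horizontal axis); black lines are means. *Pcdhgc5* is higher in set 1 and *Pcdhgc4* in set 2 in both genotypes, and within each set the *Rik* null mean lies above the WT mean.

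Among beta genes, each of which is a single exon and encodes an isoform without the shared cytoplasmic part, *Pcdhb12* went the other way. It had 2.99, 3.38 and 3.84 CPM in *Rik* null brains, against 3.84, 4.90 and 4.99 CPM in WT brains (log2 fold change −0.44, SE 0.097, adjusted p = 0.0204 by edgeR). Every *Rik* null library lay below every WT library, although the highest *Rik* null and the lowest WT value both round to 3.84. Of all genes tested, 1.23% had every *Rik* null library below every WT library and 0.517% had every one above. Among the members this held for 1 gene below (*Pcdhb12*) and 2 genes above (*Pcdhac2* and *Pcdhgb1*). The call of *Pcdhb12* was lost without WT 4 or WT 6 (edgeR adjusted p up to 0.0581), without WT 1 and WT 6 together (0.143), with the labelled sex in the fit (0.156), in libraries labelled male alone (0.463), and within set 1 (0.125) and set 2 (0.362), with a negative log2 fold change in each. An antisense RNA gene overlaps *Pcdhb12* in GENCODE M21 and leaves 1107 of its 3034 bases free on either strand, and the sources used here do not give whether the counting used strand.

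The other beta genes showed small differences. *Pcdhb17*, the beta gene with the most counts, had 16.5, 18.1 and 20.3 CPM in *Rik* null brains, against 16.1, 17.9 and 19.1 CPM in WT brains (log2 fold change 0.054, SE 0.06, adjusted p = 0.674 by edgeR). At an unadjusted p under 0.05, 2 beta genes were higher in *Rik* null brains (*Pcdhb16*, 0.29, adjusted p = 0.121, and *Pcdhb21*, 0.31, adjusted p = 0.207, by edgeR). DESeq2's Wald test, which called 7 alpha and 12 gamma genes higher, called 0 beta genes higher and *Pcdhb12* lower. It called 2.77% of all genes tested higher. The neighbours of *Pcdhb12* on its far side, *Pcdhb13*, *Pcdhb14* and *Pcdhb15*, had −0.05, −0.12 and −0.16, and none passed. The next gene on that side, *Pcdhb16*, had 0.29, and on the near side *Pcdhb10* and *Pcdhb11* had −0.04 and 0.055, again with none passing.

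Genes around the clusters held few calls. Of 95 other genes that start within 1 Mb of the first or last member, 45 were tested, and their median log2 fold change was −0.006. Of these 45, 2 were called higher and 1 lower, against 1.12% and 2.2% of all genes tested. These counts are too small to read as a result about the region. The DNA- and RNA-binding protein gene *Pura* (0.31, edgeR adjusted p = 0.0247) and *Gm6542* (0.60, adjusted p = 0.0498) rose, and *Igip* fell (−0.27, adjusted p = 0.0111). *Taf7*, a subunit gene of the general transcription factor TFIID, had 0.067 (adjusted p = 0.73).

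Genes known to control the choice of protocadherin promoters showed no call. Of 20 such genes, 0 were called by edgeR or by DESeq2, with 6 higher and 1 lower at an unadjusted p under 0.05 by edgeR and a median log2 fold change of 0.046. Over all genes tested, 3.31% were called by edgeR, so 0 of 20 is near that share. At an unadjusted p under 0.05, 8.34% of all genes tested were higher and 10.3% lower. Of the 20 genes, 15 had a positive value, against 50.5% of all genes tested. *Ctcf*, which anchors the loops between promoters and enhancers, had −0.08 (SE 0.036, edgeR adjusted p = 0.263), and the cohesin subunit gene *Rad21* had 0.089 (SE 0.034, adjusted p = 0.162). *Smchd1*, a repressor of the clusters in mice, had 0.011 (SE 0.055, adjusted p = 0.94), and the largest value was that of *Zfp143*, 0.20 (adjusted p = 0.0874). Of 19 genes for partners and proteases of protocadherins, 0 were called by edgeR and 1 by DESeq2, with 2 higher at an unadjusted p under 0.05 and a median of 0.045.

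Other cadherin genes were compared in the same fit, in which 3.31% of all genes tested were called and 8.34% were higher at an unadjusted p under 0.05. Of 12 non-clustered protocadherins, 0 were called by either tool, with 1 higher at an unadjusted p under 0.05, and the median log2 fold change was 0.073. Of these 12, 11 had a positive value (91.7%), against 85.2% of the 54 clustered members and 50.5% of all genes tested. A mostly positive sign was thus not particular to the clustered members. Of 22 atypical and classical cadherins, 0 were called by edgeR and 4 by DESeq2, all higher, 19 had a positive value, 10 were higher at an unadjusted p under 0.05, and the median was 0.18. The largest was *Celsr1*, a planar cell polarity cadherin, with 0.39 (SE 0.13, edgeR adjusted p = 0.101).

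Several RNAs of other kinds moved with genotype in the same libraries. Over all genes tested, 1.12% were called higher and 2.2% lower. *Malat1*, an abundant nuclear RNA, had 689, 790 and 1146 CPM in *Rik* null brains, against 298, 522 and 622 CPM in WT brains (log2 fold change 0.71, SE 0.15, adjusted p = 0.0127 by edgeR). Of the 10 nuclear-retained long RNAs listed, it was the one that rose, *Mirg* and *Snhg11* fell, 2 had positive values, and the median was −0.18. Summed markers of choroid plexus epithelium had 477 to 608 CPM in *Rik* null brains and 336 to 508 CPM in WT brains, with 3 of 6 called higher (*Folr1*, *Sostdc1* and *Ttr*). *Ttr* made up most of this sum, with a mean of 494 of 532 CPM in *Rik* null brains and 383 of 413 CPM in WT brains. Meningeal fibroblast markers had 132 to 185 CPM in *Rik* null brains and 108 to 151 CPM in WT brains, with *Dcn* and *Slc22a6* of 6 called higher. Endothelial markers had 125 to 148 CPM in *Rik* null brains and 162 to 189 CPM in WT brains, with *Cdh5* of 5 called lower. No listed marker of these 3 cell types was at 0. The part of these differences in the protocadherin levels was not tested.

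Markers of neurons and glia were read in the same fit, in which 3.31% of all genes tested were called by edgeR. At an unadjusted p under 0.05, 8.34% of all genes tested were higher and 10.3% lower. Summed neuronal markers had 5350 to 5760 CPM in *Rik* null brains and 5505 to 5890 CPM in WT brains, with 0 of 9 called by either tool, 1 higher and 1 lower at an unadjusted p under 0.05, and a median log2 fold change of −0.04. Markers of serotonergic neurons, which use *Pcdhac2*, summed to 49.7 to 76.7 CPM in *Rik* null brains and 34.3 to 72.4 CPM in WT brains, with 0 of 5 called by either tool and 0 past an unadjusted p of 0.05. Astrocyte markers summed to 3182 to 4109 CPM in *Rik* null brains and 2987 to 3548 CPM in WT brains. Of these 6 genes 1 was called (*Gfap*, 0.34, edgeR adjusted p = 0.0029), 4 were higher at an unadjusted p under 0.05, all 6 had positive values, and the median log2 fold change was 0.17. The part of astrocyte RNA in the protocadherin levels was not tested. Of 8 oligodendrocyte, 6 microglia and 6 proliferation markers 0 were called by either tool, with 1, 1 and 0 higher at an unadjusted p under 0.05. Of 6 pituitary markers 3 were tested and 0 called by either tool, with 1 higher at an unadjusted p under 0.05.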

How the data were processed

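RNA of 14 mouse brains was sequenced, 1 library per pup. The authors deposited raw whole-number counts per gene and FPKM values, which here equal the count divided by a library factor and the full gene length, shared exons included. Columns with the authors' own fold changes and p-values were not used, and 0 columns of values belonged to no sample. Aligner, counting program, RNA selection and strandedness were not given in the sources used here. As build, the labels name mm10, but of 52073 genes matched to GENCODE M21 (GRCm38) by identifier 1485 start at the same base, so positions are given as distances. *ENSMUSG00000007440* is *Pcdha10* in the table and *Pcdha11* in M21.

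Groups came from the sample labels. With edgeR 4.0.16 under R 4.3.3, counts were scaled by TMM, filtered for low values by genotype (18170 genes left) and compared by the quasi-likelihood test with no term but genotype, with Benjamini-Hochberg adjustment over all of them and calls at an adjusted p of at most 0.05. p-values measure the spread between pups of the litters sampled. The fit was tested on simulated data. Alternatives were DESeq2 1.42.0, other scaling and filters, labelled sex, the replicate number or library set as a block, labelled males alone, and libraries left out; fits within a library set were added after seeing the data. Library sets were found by average linkage on all tested genes. Members and lists were chosen with earlier results of these data known. Members called, the C-type genes and the member with the most counts in each cluster are given by library; in other lists up to 4 called genes are named, and uncalled genes named there were chosen after their values were seen. The lowest chi-square per gene between 2 libraries of 1 genotype was 2.48, so none was counted as a duplicate.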

Additional observations from a re-analysis of the deposited data

Results flagged for a closer look

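In 36 groups checked (15 members and the 3 cluster sums in both genotypes), 2 held a library far from the others by Dixon's criterion, both times WT 6 in an alpha gene. Chance alone would give about 1 in 20 groups. *Pcdha5* had 6.83 CPM in WT 6, against 4.63 to 5.30 CPM in the other WT brains. *Pcdhac1* had 4.24 CPM in WT 6, against 2.67 to 3.26 CPM in the other WT brains. WT 6 also had the highest summed alpha level of the WT brains (86.3 CPM) and is 1 of the 2 libraries whose sex goes against the labels.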

How the results depend on the processing

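The 12 called members kept the sign of their change under the alternatives run, and their calls were often lost. Of the 54 members, 43 had the same sign in every fit, 10 of 12 alpha, 13 of 21 beta and 20 of 21 gamma genes. The sign differed in at least 1 fit for *Pcdha1*, *Pcdha10*, *Pcdhb2*, *Pcdhb4*, *Pcdhb6*, *Pcdhb7*, *Pcdhb10*, *Pcdhb11*, *Pcdhb13*, *Pcdhb17* (−0.0047 within set 1) and *Pcdhgb8*. Against 12 members called with all libraries, 20 were called by DESeq2, 19 with the library set as a block, 6 without *Rik* null 5 and 8 and within set 2, 4 with labelled sex, 3 without WT 1 and WT 6, 1 in labelled males (7 *Rik* null and 2 WT) and 0 within set 1. Over all genes tested, 2.77% were called higher by DESeq2 and 3.81% with the set as a block. It was 1.63% within set 2, 0.022% within set 1, 0.237% with labelled sex and 0.0054% in labelled males, against 1.12%. The labelled males include WT 1, whose RNA goes against its label, so neither sex fit adjusts for the sex seen in the RNA. Alpha genes called higher numbered 7 by DESeq2, 1 with labelled sex and without *Rik* null 5 and 8, and 0 in labelled males and within set 1, against 3. Gamma genes called higher numbered 14 with the set as a block, 5 with no filter on low counts, 4 without *Rik* null 5 and 8 and within set 2, 3 with labelled sex, 1 in labelled males and without WT 1 and WT 6, and 0 within set 1, against 8. Among the promoter choice, partner and other cadherin genes, 5 were called by DESeq2, 7 with the set as a block and 2 within set 2, against 0. Of the neighbouring genes, 7 were called with the set as a block, 1 with labelled sex, and 0 in labelled males, without WT 1 and WT 6 and within set 1, against 3. With 1 library left out, 3 to 15 members, 1 to 4 alpha genes, 2 to 10 gamma genes, 0 to 2 of the other lists and 1 to 4 neighbouring genes were called. DESeq2's size factors and TMM without mitochondrially encoded genes gave the same 12 members. The causes were not tested.

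Whether the replicate numbers pair the libraries was not settled: the correlation of same-numbered deviations was −0.34 to 0.32 over 6 numbers, and 2 of the 6 were negative. Numbers 1, 2, 3 and 6, with both libraries in the same set, gave 0.20 to 0.32. Numbers 4 and 5, across the sets, gave −0.34 and −0.11. The values thus follow the library sets, so they cannot show whether litters pair the libraries. With the replicate number as a block, 9 members were called, all among the 12 (not *Pcdhb12*, *Pcdhga2* and *Pcdhga7*). *Pcdha8* had 197 counts in all and a wide error (SE 0.25). Summed cluster levels kept their size (alpha 0.35 to 0.43, beta 0.036 to 0.062 and gamma 0.26 to 0.32 on the log2 scale with 1 library left out).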
